A study of Mus musculus with 9 samples.

Results

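The genes described here are 34 genes of fatty acid oxidation and ketogenesis in AML12 cells, chosen by name and looked up in the 2 result tables of a *Srrm2* knockdown experiment, which together list 13643 genes. They include the transcription factor *Ppara*, the enzymes that activate, import and oxidise fatty acids in mitochondria and peroxisomes, and genes of lipid storage and fuel choice. Symbols were matched to gene identifiers through GENCODE M1, all 34 were found in the annotation, and 33 are listed in both tables. *Fabp1* is listed in neither.

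AML12 is a hepatocyte line from the liver of a mouse transgenic for human TGF-alpha. Cells were grown with 10% serum, an insulin, transferrin and selenium supplement and 0.1 µM of the glucocorticoid dexamethasone. They carried a control shRNA or 1 of 2 shRNAs against *Srrm2*, a scaffold of nuclear speckles (NSs), delivered by lentivirus for 5 days. The groups are Control, *Srrm2* shRNA 1 and *Srrm2* shRNA 2, with 3 libraries each. They therefore shared the cell line, the medium, the steroid and the viral infection, and each hairpin is a single construct.

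The values used are the authors' mean normalized counts. Each of the 2 tables gives 1 mean per gene over 6 libraries, the 3 Control libraries and the 3 of 1 hairpin, so the same Control libraries enter both means. A pooled mean of this kind gives the level of a gene in these cells. It cannot show whether the gene was higher or lower with a hairpin than in Control, and it carries no spread between libraries, so no difference below has an error or a p-value. The 2 means differ through the libraries of the 2 hairpins, and through scaling, since the tables were normalized separately. The effect of a hairpin cannot be told apart from variation between its libraries and those of the other hairpin. The means sum to 6144608 over 13424 genes in the table of shRNA 1 and to 6393456 over 13478 genes in that of shRNA 2, and the depth of a single library is unknown. *Srrm2* had pooled means of 3428 and 3759, which do not check the knockdown, because Control cells are in both.

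Long-chain fatty acids are bound in the cytosol, linked to coenzyme A by acyl-CoA synthetases and carried into mitochondria by the carnitine shuttle, whose first enzyme, Cpt1a, limits the rate. Inside, each turn of beta-oxidation runs through an acyl-CoA dehydrogenase, a hydratase, a second dehydrogenase and a thiolase, and the electrons from the first step pass through the electron transfer flavoprotein. Peroxisomes run a parallel pathway for very long and branched chains. In the fasted liver PPARα induces many of these genes, and the acetyl-CoA they yield is turned into ketone bodies.

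The hepatocyte label was compared with marker genes on the scale of mean normalized count per kb of exon. *Alb*, *Ttr* and *Apob* lay above the 98th percentile of all listed genes in both tables (lowest value 98.2), and the hepatocyte regulator *Hnf4a* at percentiles 92.7 and 93.1. *Serpina1a* was at percentiles 81.1 and 86.0 and *Fgb* at 64.8 and 53.4, and the other 7 listed markers were below the median gene. Of 17 hepatocyte markers that could be matched, *Apoa2*, *Cyp7a1*, *Arg1* and *G6pc* are listed in neither table, and *Tat* had pooled means of 4.37 and 2.94. Of 6 markers of bile duct and progenitor cells 5 are listed, while *Epcam* is not. *Krt19* was at percentiles 99.2 and 99.1, *Spp1* at 99.6 in both, *Krt7* at 87.0 and 89.2 and *Sox9* at 84.0 and 85.4. The progenitor marker *Afp* was low, at percentiles 15.8 and 13.2. Of 7 stellate cell and fibroblast markers 2 are listed, both at a mean under 10, and of 7 leukocyte and endothelial markers *Ptprc* and *Cd68* are listed, at most 29.8. The cells thus carried markers of hepatocytes and of bile duct cells together, and the part of this in the values below was not tested.

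The listed genes of fatty acid oxidation were mostly expressed above the middle of the transcriptome, but unevenly. Their median level was 105 normalized counts per kb in the table of shRNA 1 and 100.5 in that of shRNA 2, at percentiles 74.7 and 72.5 of all listed genes. Of the 33, 8 were above the 90th percentile in each table, and 4 and 5 were below the median gene. In both tables all 33 had means of 10 or more, and 29 had 100 or more. Together they made up 0.370% and 0.358% of the summed means. Per kb of exon, the level of the highest, *Acsl5*, was 144 and 148 times that of the lowest, *Bdh1*. The order of the levels was nearly the same in the 2 tables, whose means share the Control libraries, so the likeness is not independent. In all 18 genes kept their rank, 12 moved by 1 place and 3 by more, at most 4 places. Because the spread between libraries is unknown, genes next to each other in this order cannot be told apart.

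**Figure D1:**
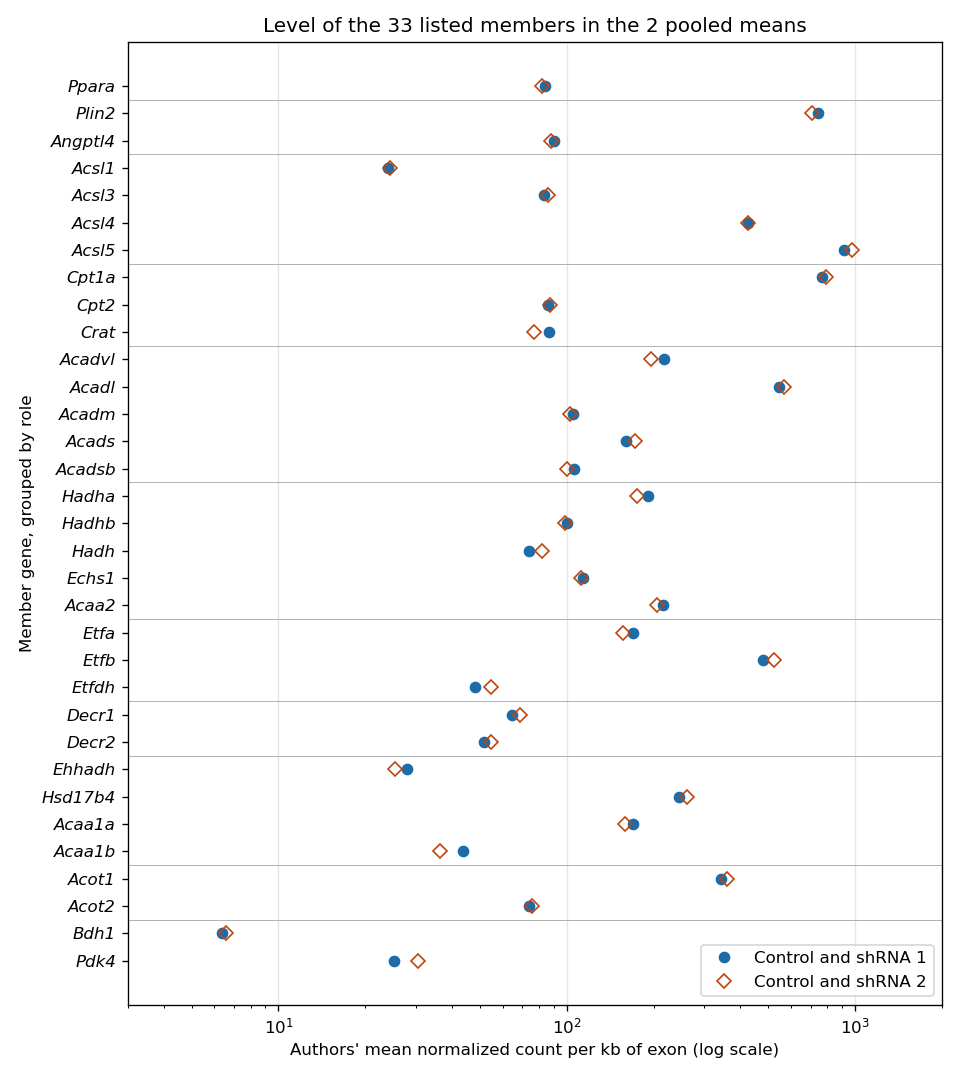
Authors' mean normalized count per kb of exon (log axis) for the 33 listed genes, grouped by role from *Ppara* at the top to *Bdh1* and *Pdk4* at the bottom. Circles are the mean over Control and shRNA 1 libraries and diamonds that over Control and shRNA 2 libraries, and no error can be drawn. *Acsl5*, *Cpt1a* and *Plin2* lie highest, from 706 to 972, and *Bdh1* lowest, at 6.35 and 6.57.

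*Acsl5* was the highest gene of the set per kb of exon. Per kb of the longest coding transcript *Plin2* was first in both tables, at 1379 and 1313 against 1022 and 1090 for *Acsl5*. *Acsl5* encodes an acyl-CoA synthetase of mitochondria and the endoplasmic reticulum (chromosome 19 of mm9, 55327859 to 55371117) and had pooled means of 3221 and 3433. This is 912 and 972 per kb of exon, percentiles 98.3 and 98.4. *Acsl4*, which prefers arachidonic acid, had 424 and 426 per kb, and *Acsl3*, found on lipid droplets, 83.3 and 86.0. *Acsl1*, the main synthetase of adult liver, was the lowest of the 4 at 23.9 and 24.3 per kb, under the median gene at percentiles 36.5 and 36.0. *Acsl5* exceeded *Acsl1* 38.1 and 40.03 times per kb of exon, and 17.6 and 18.5 times per kb of the longest coding transcript, since the annotation gives *Acsl1* long exons.

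In the carnitine shuttle, *Cpt1a* was far above its partner in the inner membrane. *Cpt1a* (chromosome 19, 3323301 to 3385732) had pooled means of 3309 and 3407, or 769.5 and 792 per kb, and *Cpt2* (chromosome 4, 107576586 to 107596215) 204 and 207, or 86.2 and 87.3 per kb. The level of *Cpt1a* per kb was 8.93 and 9.08 times that of *Cpt2*. *Crat*, which moves short acyl groups between carnitine and coenzyme A, had 86.7 and 77.0 per kb.

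Lipid binding and storage genes differed widely. *Plin2*, which coats lipid droplets, had pooled means of 2604 and 2480, or 741 and 706 per kb, percentiles 97.8 and 97.5. *Angptl4*, a secreted inhibitor of lipoprotein lipase and a known target of PPARs, was at 89.9 and 87.8 per kb. *Fabp1*, the liver fatty acid-binding protein and one of the most abundant transcripts of the liver, is listed in neither table. Why a gene was not listed is not given in the sources used here, and the lowest listed means are 1.56 and 1.92. *Ppara* itself (chromosome 15, 85565413 to 85633249) was present at pooled means of 323 and 315, or 84.1 and 82.1 per kb. Together, *Cpt1a*, *Acsl5*, *Plin2* and *Acsl4*, held 50.3% and 50.7% of the summed means of the whole set, a share that depends on transcript length.

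Of the acyl-CoA dehydrogenases, which differ in the chain length they accept, the long-chain enzyme led. *Acadl* (chromosome 1, 66877413 to 66909851) had pooled means of 1088 and 1131, or 542 and 564 per kb. *Acadvl*, for very long chains, followed at 217 and 196 per kb, *Acads*, for short chains, at 160.1 and 172, *Acadsb*, for short branched chains, at 106 and 100.5, and *Acadm*, for medium chains, at 105 and 103. *Acadl* exceeded *Acadm* 5.14 and 5.504 times per kb of exon, and 3.76 and 4.02 times per kb of the longest coding transcript. Per kb of exon *Acadsb* and *Acadm* lie too close to be ordered, and they traded places between the tables.

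*Hadha* and *Hadhb* encode the 2 subunits of the mitochondrial trifunctional protein, which carries out the later steps for long chains. They lie head to head on chromosome 5 with 85 bases between their annotated starts, *Hadha* on the - strand and *Hadhb* on the + strand. The stretch between them is shown because both subunit genes start from it. It is read from NCBIM37, the assembly of mm9, at chr5:30481703-30481787 on the + strand, with its 9 CG pairs in capitals, and 69.4% of its bases are G or C.

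Hadha to Hadhb: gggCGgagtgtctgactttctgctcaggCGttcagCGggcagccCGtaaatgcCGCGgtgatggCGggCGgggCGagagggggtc

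*Hadha* had pooled means of 1021 and 934, and *Hadhb* 661 and 649. Per kb of exon the level of *Hadha* was 1.91 and 1.78 times that of *Hadhb*, but per kb of the longest coding transcript it was 0.786 and 0.733 times, so their order depends on which length is used. *Hadhb* has 6595 bases of exon in the annotation and 2046 in its longest coding transcript. *Hadh*, the dehydrogenase for shorter chains, had 73.8 and 81.8 per kb of exon, *Echs1*, the short-chain hydratase, 114 and 112, and *Acaa2*, the mitochondrial thiolase, 216 and 206. *Echs1* was the 15th of the 33 genes by exon length and the 7th by transcript length in the table of shRNA 1.

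The electron transfer flavoprotein is a dimer of Etfa and Etfb that passes electrons to Etfdh. *Etfb* (chromosome 7, 50699478 to 50713170) was among the 5 highest genes of the set, at 478 and 524 per kb of exon. *Etfa* had 169 and 156, which is 0.354 and 0.298 of *Etfb* per kb, and 0.356 and 0.299 with the transcript length. *Etfdh* was at 48.0 and 54.7. Of the dienoyl-CoA reductases, needed for unsaturated chains, *Decr1* of mitochondria had 64.7 and 68.8 per kb of exon and *Decr2* of peroxisomes 51.8 and 54.4. They lay further apart per kb of the longest coding transcript, at 84.8 and 90.2 against 54.2 and 56.9.

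Among the peroxisomal enzymes *Hsd17b4*, the D-bifunctional protein, had 245 and 261 per kb, against 27.8 and 25.4 for *Ehhadh*, the L-bifunctional protein. Of the peroxisomal thiolases, *Acaa1a* had pooled means of 309.7 and 291 (169.8 and 159.7 per kb) and *Acaa1b* 85.4 and 71.0 (43.5 and 36.2 per kb). They are similar genes on chromosome 9, 184200 bases apart and on opposite strands. The acyl-CoA thioesterases, which release free fatty acids, are also similar neighbours, with *Acot2* of mitochondria and *Acot1* of the cytosol 15624 bases apart on the + strand of chromosome 12. *Acot1* had pooled means of 537 and 563 (343 and 360.1 per kb) and *Acot2* 162 and 167 (73.8 and 75.8 per kb).

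The authors kept uniquely mapped read pairs, which bears on these 2 pairs of genes. Of all 50-base windows in the longest coding transcript, 47.1% of *Acot1*, 27.6% of *Acot2*, 35.5% of *Acaa1b* and 34.1% of *Acaa1a* also occur in a coding transcript of another gene, most often in the partner. With 100-base windows the shares were 32.5%, 17.1%, 22.6% and 21.7%. For 27 of the 34 genes no window was shared. The levels of these 4 genes are therefore uncertain, as is the ratio within each pair. The sequences below show where the partners are most alike, since a read from such a stretch has few bases to place it. Each stretch is 60 bases of coding sequence from the GENCODE M1 transcripts, 5′ to 3′ on the gene's own strand, at the end of the longest run that a pair shares in its coding part, 273 bases for the thioesterases and 327 for the thiolases. Capitals mark the bases that differ within a pair, 3 in the first pair and 1 in the second.

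Acot1: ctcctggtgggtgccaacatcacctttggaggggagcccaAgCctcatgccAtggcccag
Acot2: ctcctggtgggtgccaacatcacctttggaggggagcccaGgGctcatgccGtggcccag
Acaa1a: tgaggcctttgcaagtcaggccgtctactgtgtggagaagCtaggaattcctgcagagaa
Acaa1b: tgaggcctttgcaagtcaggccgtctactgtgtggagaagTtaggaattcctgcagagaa

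**Figure D2:**
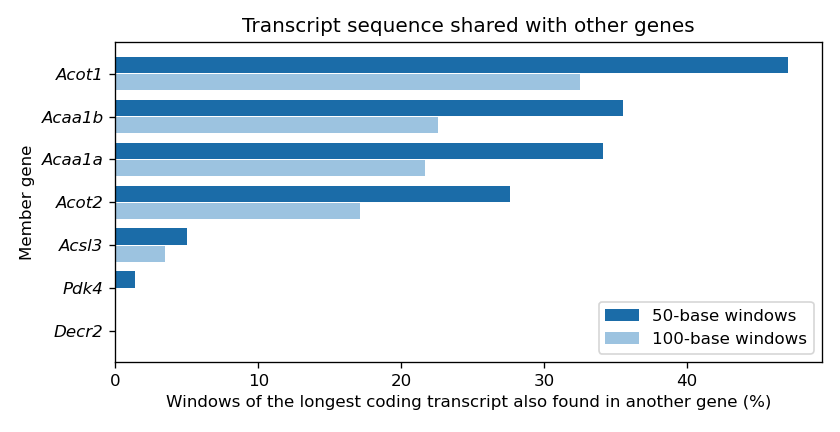
Percent of the windows of the longest coding transcript that also occur in a coding transcript of another gene, for the 7 genes of the set with any such window, with 50-base windows in dark and 100-base windows in light bars. *Acot1*, *Acaa1b*, *Acaa1a* and *Acot2* stand out at 27.6% to 47.1% of the 50-base windows, and *Acsl3* follows at 5.0%.

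*Bdh1* and *Pdk4* were among the 4 lowest genes of the set per kb of exon. *Bdh1*, which interconverts the 2 main ketone bodies, had pooled means of 24.1 and 24.98, or 6.35 and 6.57 per kb, percentiles 17.9 and 17.8. *Pdk4*, which shuts off pyruvate dehydrogenase when fat is burned, had 88.3 and 107, or 25.1 and 30.5 per kb, percentiles 37.4 and 40.9.

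The promoters of the set were searched for the half-site AGGTCA of nuclear receptors, and for 2 copies of it in the same direction 1 base apart with up to 2 mismatches, the form that PPARα binds with its partner RXR. RefSeq promoters (GRCm38.p6, 250 bases before to 50 after the start) matched 29 of the 34 genes with 31 promoters. *Acaa2*, *Angptl4*, *Crat*, *Decr1* and *Hsd17b4* had none. On either strand the half-site was in 6 of the 31 promoters (19.4%) and in 16.3% of all 32851 promoters, and the repeat in 4 (12.9%) and in 3.86%. A perfect copy of the repeat also holds the half-site. Most promoters of the set thus hold no such repeat. The 4 matches are printed below, each on its gene's own strand with the 13 bases of the match in capitals.

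Fabp1: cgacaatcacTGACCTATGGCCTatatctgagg
Plin2: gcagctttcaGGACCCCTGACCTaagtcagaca
Echs1: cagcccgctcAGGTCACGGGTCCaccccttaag
Etfa: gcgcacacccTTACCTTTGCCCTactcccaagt

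They lie at chr6:71199802-71199834 on the + strand, chr4:86670262-86670294 on the - strand, chr7:140116482-140116514 on the - strand and chr9:55512298-55512330 on the - strand of GRCm38.p6. The match in *Fabp1* has 1 mismatch and ends 55 bases before the start, and the others have 2. These are matches of letters and not shown to be bound. The 4 genes did not share a level, since *Fabp1* is not listed, *Plin2* was at percentiles 97.8 and 97.5 per kb, *Etfa* at 84.8 and 82.7 and *Echs1* at 76.4 and 75.1.

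To compare the hairpins, the mean over Control and shRNA 2 libraries was divided by that over Control and shRNA 1 libraries. Because the Control level is in both, a ratio above 1 is a higher level in the shRNA 2 libraries than in the shRNA 1 libraries. It understates that difference as far as the scaling of the tables holds. The log2 ratio was centred by subtracting its median of 0.07 over the 11451 genes that reached a mean of 10 in both tables. The quartiles over all these genes were -0.10 and 0.10. A ratio of at least 1.2-fold, a log2 value of 0.26, was taken as past the fold, with no test behind it. Across all genes 13.0% were past it, 6.82% lower and 6.18% higher with shRNA 2.

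The 2 pooled means of the genes of fatty acid oxidation were mostly close, as far as means that share the Control libraries can show. Of the 33, 1 was past 1.2-fold, against 13.0% of all genes with a mean of at least 10. Genes of low mean spread more widely, and 29 of the 33 had means of at least 100 in both tables. No share was computed for genes of like level, so the level may enter this contrast. The 1 gene past the fold was *Acaa1b*. Its pooled means of 85.4 and 71.0 give a centred log2 ratio of -0.34, a 1.26-fold lower mean with shRNA 2, and it shares sequence with *Acaa1a*, whose ratio was -0.16. The median log2 ratio of the 33 was -0.05, with a range from -0.34 to 0.21. Centred, 25 ratios were below 0 and 8 above. Without centring 15 were below and 18 above, so the lean towards lower means with shRNA 2 depends on the scaling. Of the 10 hepatocyte markers with a mean of at least 10, 5 were past 1.2-fold lower with shRNA 2, and 1, *Serpina1a*, was past it higher (0.35). The lower ones were *Alb*, with a log2 ratio of -0.32, and *Fgb*, *Fga*, *Cps1* and *Apoh*, whose means were at most 122. *Apob* at 0.09, *Hnf4a* at 0.04, *Ttr* at 0.01 and *Apoa1* at -0.09 were within 1.2-fold. Of the 4 bile duct and progenitor markers none was past it. Their part in the ratios was not tested.

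**Figure D3:**
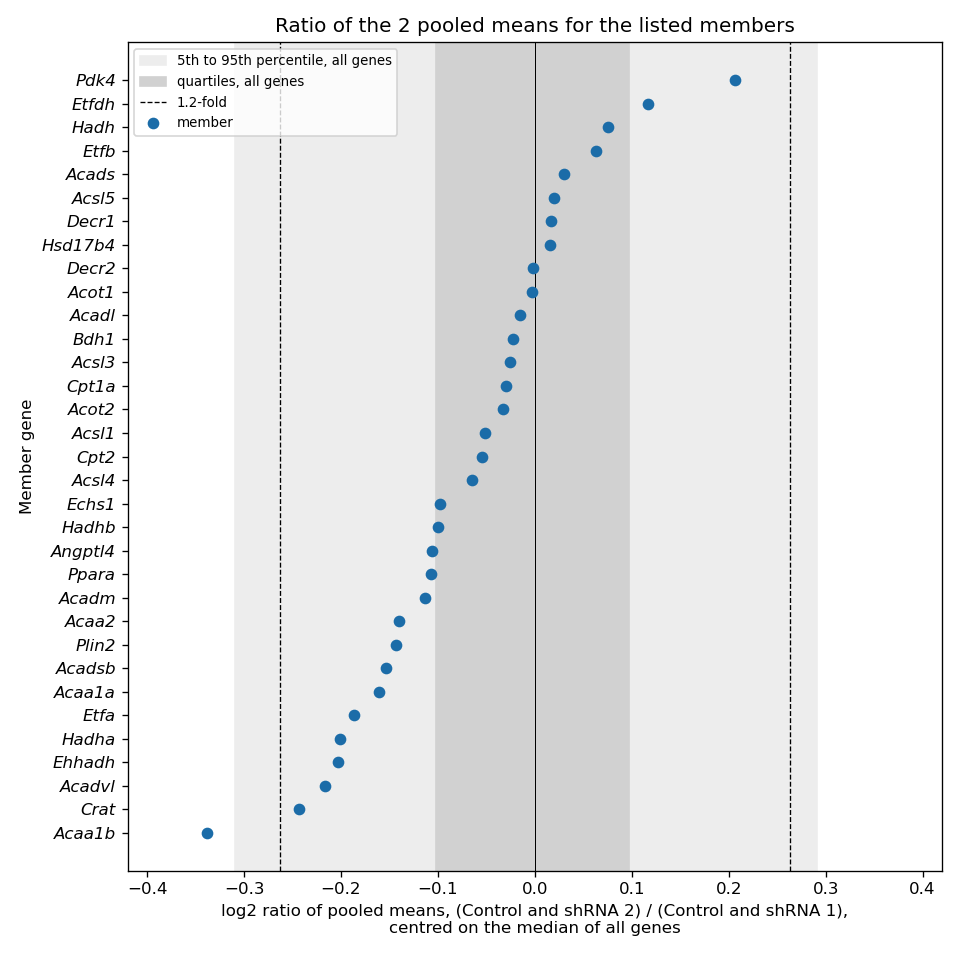
Centred log2 ratio of the pooled means, Control and shRNA 2 over Control and shRNA 1, for each of the 33 listed genes, sorted. Light and dark bands are the 5th to 95th percentile (-0.31 to 0.29) and the quartiles of all genes, and dashed lines mark 1.2-fold. *Acaa1b* alone lies beyond a dashed line, and *Pdk4* is highest at 0.21.

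At the lower bar of 1.1-fold, 10 of the 33 genes had a lower and 1 a higher mean with shRNA 2, against 18.2% lower and 17.8% higher of all genes (36.0% in all). After *Acaa1b*, the lower ones were *Crat* with a log2 ratio of -0.24, *Acadvl* with -0.22, *Ehhadh* and *Hadha* with -0.20, *Etfa* with -0.19, *Acaa1a* with -0.16, *Acadsb* with -0.15, and *Plin2* and *Acaa2* with -0.14. The higher one was *Pdk4*, at pooled means of 88.3 and 107 and a log2 ratio of 0.21. This split came with the centring. Without it 3 genes were lower, *Acaa1b*, *Crat* and *Acadvl*, and 3 higher, *Pdk4*, *Etfdh* and *Hadh*, against 10.2% lower and 32.5% higher of all genes.

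Genes whose products work together did not always have the same ratio, but with no error these differences cannot be told from variation between libraries. *Etfa* was at -0.19, while *Etfb* was at 0.06 and *Etfdh* at 0.12. *Hadha* was at -0.20 and *Hadhb* at -0.10. The acyl-CoA synthetases were nearly level, with *Acsl5* at 0.02, *Acsl3* at -0.03, *Acsl1* at -0.05 and *Acsl4* at -0.06. In the carnitine shuttle *Cpt1a* was at -0.03 and *Cpt2* at -0.05, but *Crat* was at -0.24. *Ppara* was at -0.11, *Angptl4* at -0.11 and *Acadm* at -0.11, all 3 within 1.1-fold. In all, 22 of the 33 genes were within 1.1-fold and 11 were past it. Of all genes 36.0% were past 1.1-fold, a similar share.

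**Figure D4:**
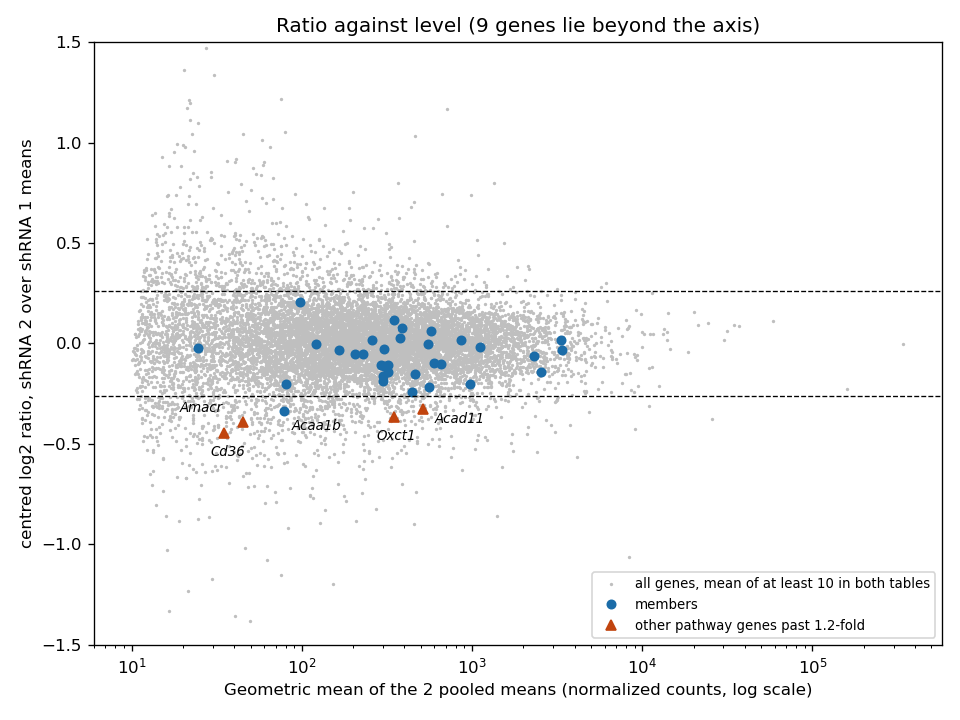
Centred log2 ratio of the pooled means against their geometric mean (log axis), with all 11451 genes in grey, the listed genes of the set as blue circles and 4 further pathway genes past 1.2-fold as red triangles. Dashed lines mark 1.2-fold, and 9 genes lie beyond the vertical axis. The blue circles lie between -0.34 and 0.21, and grey points spread more widely at low means.

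A further 46 genes of the same pathways were looked up, of which 40 are listed in both tables and 37 reached a mean of 10 in both. The 3 highest of them per kb were *Acox2*, an oxidase for bile acid precursors, at 364 and 329.7, *Eci2*, an enoyl-CoA isomerase, at 289 and 294, and *Scp2*, a peroxisomal thiolase and lipid carrier, at 181 and 179. The median log2 ratio of the 37 was -0.05, and 4 of them were past 1.2-fold lower with shRNA 2, where 6.82% of all genes were. With no test, these values are a description. The 4 included *Oxct1*, an enzyme of ketone body use, with means of 382 and 312 and a log2 ratio of -0.37. The other lower genes were *Acad11* (-0.33), an acyl-CoA dehydrogenase, *Amacr* (-0.39), a racemase for branched chains, and *Cd36* (-0.45), a fatty acid transporter with means of only 39.5 and 30.5. The genes listed in neither table were *Slc27a2*, *Slc27a5*, *Abcd2*, *Fgf21*, *Cyp4a10* and *Cyp4a14*, of which *Fgf21* and the Cyp4a genes are known PPARα targets.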

How the data were processed

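RNA-seq of AML12 cells was used, with 3 libraries each of Control, *Srrm2* shRNA 1 and *Srrm2* shRNA 2, grouped by sample title. The authors trimmed and mapped reads to mm9 with TopHat2, counted uniquely mapped pairs per GENCODE M1 gene (HTSeq) and normalized the counts in DESeq2 version 1.8.2. The deposited tables give for each gene the mean normalized count of 6 libraries, a signal that had been divided by size factors but not by length. They also hold the authors' log2 fold changes against Control, standard errors, test statistics, p-values and adjusted p-values, which were not used here. Values of single libraries were not used, so nothing was tested and no library could be left out. The depth per library and the precision of each mean are therefore unknown.

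Means were divided by the length of all joined exons in kb (GENCODE M1, which matched all identifiers), and percentiles were taken over all listed genes. Ratios of the 2 means were centred on the median gene. Shared windows were counted in coding transcripts, and motifs in RefSeq promoters. The 34 genes, the further 46 genes, the markers and the settings were chosen with earlier results of these data known. All 34 genes are named, and of the further 46 those past 1.2-fold, the 3 highest per kb and those not listed. Of the pathway genes first chosen, 2 are not reported here. Of the markers, *Tf* had no single match in the annotation. Python 3.11.15, numpy 2.4.6, pandas 2.3.3 and matplotlib 3.10.9 were used.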

Additional observations from a re-analysis of the deposited data

How the results depend on the processing

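No paired analysis was possible because no value per library was used and the 2 means per gene carry no replicate numbers, and for the same reason no replicate could be left out. The median percentile of the listed genes moved with the length. It was 74.7 and 72.5 with joined exons, 80.6 and 78.5 with the longest coding transcript, and 69.2 and 71.0 with no length correction. The same 5 genes were highest with both lengths in the table of shRNA 1, and single genes moved by up to 9 places. The number of genes past the fold between the hairpins was 1, and became 2 without centring. It was 11 at 1.1-fold and 6 at 1.1-fold without centring (a setting added after the data were seen). It was 0 at 1.5-fold and 0 at a minimum mean of 100, which removes *Acaa1b*. Of all genes 13.0% were past 1.2-fold and 36.0% past 1.1-fold, both centred. Without centring 10.2% were past 1.1-fold lower and 32.5% higher. No share of all genes was computed for 1.2-fold without centring, for 1.5-fold or for the minimum mean of 100. Those counts therefore stand without a comparison. The median log2 ratio changed sign without centring, from -0.05 to 0.02, and stayed between -0.06 and -0.04 under the other centrings and minimum means. Without centring 10 of the 33 genes changed sign, and under each of the other centrings 2 did. With at most 1 mismatch, 1 gene and not 4 held the repeat, which is 3.23% of the promoters of the set and 0.554% of all promoters. The share of the summed means was 0.395% and 0.384% over protein-coding genes.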
